A study of Homo sapiens with 16 samples.

Results

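The genes described here were the clustered, replication-dependent histone genes, chosen as every row of the count table whose symbol begins with HIST1, HIST2, HIST3 or HIST4 followed by H1, H2A, H2B, H3 or H4. The rule found 73 of the 25369 genes, and the 40 that had at least 10 reads in 2 or more of the 16 libraries are reported below. Of the other 33 genes, 11 had no read in any library, and none of the 22 with reads exceeded 13 reads in a library. By cluster, 34 of 56 HIST1 genes, 5 of 13 HIST2 genes, 1 of 3 HIST3 genes and 0 of 1 HIST4 gene were reported. By type, these were 4 of 6 linker histone H1 genes, 10 of 18 H2A genes, 14 of 20 H2B genes, 9 of 14 H3 genes and 3 of 15 H4 genes.

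Replication-dependent histone genes supply the bulk of histone protein during S phase, when new DNA is packaged into nucleosomes. Their mRNAs are unusual in that most end in a conserved stem-loop rather than a poly(A) tail. The stem-loop is bound by SLBP and the transcript is cut just downstream of it with the help of the U7 snRNP, a small nuclear ribonucleoprotein that contains LSM10 and LSM11. Some of these genes also carry a polyadenylation signal further downstream, and polyadenylated histone mRNAs are known from differentiated and non-dividing cells. A library prepared from polyadenylated RNA therefore samples only the tailed part of the transcripts from these genes and whatever untailed RNA is carried along.

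The libraries were prepared from polyadenylated RNA of TPC1 and K1, 2 human papillary thyroid carcinoma cell lines with wild-type p53. Cells of each line received for 24 h the vehicle DMSO (0.2%), 10 µM nutlin, 25 µM GSK2830371, or 10 µM nutlin together with 25 µM GSK2830371. Nutlin blocks MDM2, the ubiquitin ligase that restrains p53, and GSK2830371 inhibits PPM1D, a phosphatase that dampens p53 signaling. Each of the 8 groups had 2 libraries, named here by the replicate numbers of the count table, 1 and 3 for TPC1 and 1 and 2 for K1. The study says of its experiments in general that replicates were prepared independently, and the labels do not say how the libraries of a group were related, so p-values measure the spread between these libraries. The lines were grown in different media, RPMI for TPC1 and DMEM for K1, so line and medium cannot be told apart.

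The 4 TPC1 libraries numbered 3 held between 62853375 and 76648552 counts, and the other 12 held between 28888686 and 37161241 counts. CDKN1A, the p21 gene that p53 induces to stop the cell cycle, rose under nutlin by 5.61 ± 0.14 (log2, SE) in TPC1 and by 3.16 in K1. Of 13 thyroid and epithelial markers, 12 had counts, and their sum was 802 to 1284 CPM (counts-per-million of the library) in TPC1 and 1715 to 2112 CPM in K1, with PAX8 at 298 to 470 CPM in TPC1 and 742 to 838 CPM in K1. The thyroid markers NKX2-1 and TSHR were at or near 0 in both lines, as were EPCAM and CDH1 (at most 0.521 CPM). Of 10 markers of fibroblasts, immune cells and endothelium, 9 had counts, and they summed to between 38.6 and 79.5 CPM, of which CD68 alone gave 33.3 to 76.2 CPM while CD3E was at 0.

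The stem-loop was searched for within 150 bases after the stop codon and was found in all 67 members whose reading frame is in the reference annotation, among them 37 of the 40 reported. It has 6 paired bases on each side of a loop of 4, and 1 mismatch in the stem was allowed. The copies below are shown because the genes they belong to carried most of the reads or the largest changes. They were read from GRCh37 on the strand of the gene, with the stem-loop in capitals and 5 flanking bases on each side in lower case. The first 9 belong to genes that rose under nutlin in TPC1 or that gave the most reads.
HIST2H2BE (chr1:149857733-149857758, minus strand): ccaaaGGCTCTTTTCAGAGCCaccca
HIST1H2AC (chr6:26124892-26124917, plus strand): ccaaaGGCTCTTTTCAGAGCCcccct
HIST1H2BC (chr6:26123695-26123720, minus strand): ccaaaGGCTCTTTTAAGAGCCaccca
HIST1H2BD (chr6:26158810-26158835, plus strand): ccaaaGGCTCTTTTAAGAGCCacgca
HIST1H2BJ (chr6:27100095-27100120, minus strand): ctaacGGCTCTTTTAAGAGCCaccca
HIST1H2BK (chr6:27114140-27114165, minus strand): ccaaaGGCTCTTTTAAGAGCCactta
HIST1H1C (chr6:26055967-26055992, minus strand): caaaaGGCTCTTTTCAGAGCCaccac
HIST1H3E (chr6:26225819-26225844, plus strand): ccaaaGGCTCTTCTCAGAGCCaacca
HIST1H4H (chr6:26285354-26285379, minus strand): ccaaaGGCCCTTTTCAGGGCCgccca

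The next 5 belong to genes that fell under nutlin in TPC1.
HIST1H1D (chr6:26234440-26234465, minus strand): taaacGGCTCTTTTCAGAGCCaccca
HIST1H3F (chr6:26250368-26250393, minus strand): ccaaaGGCTCTTTTCAGAGCCaccaa
HIST1H2BI (chr6:26273615-26273640, plus strand): ccaaaGGCTCTTCTAAGAGCCaccca
HIST1H3B (chr6:26031820-26031845, minus strand): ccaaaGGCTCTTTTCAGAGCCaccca
HIST1H2AH (chr6:27115320-27115345, plus strand): acaaaGGCTCTTTTCAGAGCCattct

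HIST2H2BE, which rose, and HIST1H3B, which fell, have the same 26 bases. The loop TTTC was found in 50 members (29 reported), TTTA in 9 (5 reported), TTTT in 5 (1 reported), TCTC in 2 (1 reported) and TCTA in 1, the reported HIST1H2BI. Among members tested under nutlin in TPC1, 4 of 27 with the loop TTTC rose and 6 fell, and 3 of 5 with the loop TTTA rose and 1 fell. Of all genes tested 17.5% rose and 18.0% fell, which is near the shares for TTTC, and 5 genes are few for TTTA.

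Members also differ in the annotated sequence after the stem-loop. In GENCODE v44 lifted to GRCh37, 11 of the 40 reported members have a transcript that runs more than 150 bases past the stop codon, beyond the stem-loop, and are called extended here. The extension reaches 384 bases in HIST1H2BD, 569 in HIST1H2BJ, 1187 in HIST1H2AC, 1801 in HIST2H2BE, 1908 in HIST1H3E and 2167 in HIST1H2BC. Also extended were HIST1H2BN, HIST1H3H, HIST1H4H, HIST2H2BF and HIST3H2A. In 10 of the 11, the hexamer AATAAA or ATTAAA lies in the last 50 bases of such a transcript. Another 26 reported members have only short ends of 44 to 78 bases, and 3 (HIST1H2BF, HIST1H2BG and HIST2H2BC) have no annotated end here. The split describes an annotation, not the 3′ ends of the reads, and the counts were made with another annotation. Over all 73 genes, 18 were extended and 49 short.

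Reads of these genes were a small part of each library. The sum over all 73 genes was 1141 to 5357 reads per library in TPC1 and 1338 to 1771 in K1, or 0.00595% and 0.00462% of all counts of the line. The 8 leading genes took 80.8% of these reads in TPC1 and 79.4% in K1, and 6 genes were among the leading 8 of both lines. HIST1H2BK, an H2B gene, gave 28.2% of the reads in TPC1 and 24.9% in K1. HIST1H1C, a linker histone gene, gave 12.7% and 12.0%. HIST1H2BD gave 11.6% and 9.10%, HIST1H2AC 9.35% and 10.5%, and HIST2H2BE 8.87% and 12.6%. HIST2H2BC, an H2B member annotated as a pseudogene, was next with 4.36% and 3.64% and completed the 6. TPC1 added HIST1H2BJ (2.86%) and HIST1H2BG (2.77%), and K1 added HIST3H2A (3.46%) and HIST1H2BH (3.26%). Counting HIST2H2BC, H2B members thus filled most of the leading places in both lines, and no H3 or H4 gene was among them.

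Summed over all 73 genes, the level in TPC1 was 34.5 and 53.6 CPM with DMSO, 74.6 and 86.1 CPM with nutlin, 34.1 and 44.2 CPM with GSK2830371, and 62.1 and 85.5 CPM with both drugs. Every library with nutlin was above both DMSO libraries, and the GSK2830371 libraries lay within or just below the DMSO range. The ratio of group means to DMSO was 1.82 for nutlin, 0.889 for GSK2830371 and 1.67 for both drugs. In K1 the sum was 40.2 and 43.1 CPM with DMSO, 46.0 and 54.4 CPM with nutlin, 46.1 and 44.1 CPM with GSK2830371, and 45.0 and 47.3 CPM with both drugs, for ratios of 1.20, 1.08 and 1.11. The K1 treated libraries were all above the DMSO libraries, by less than in TPC1. No test was made on a sum.

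**Figure D1:**
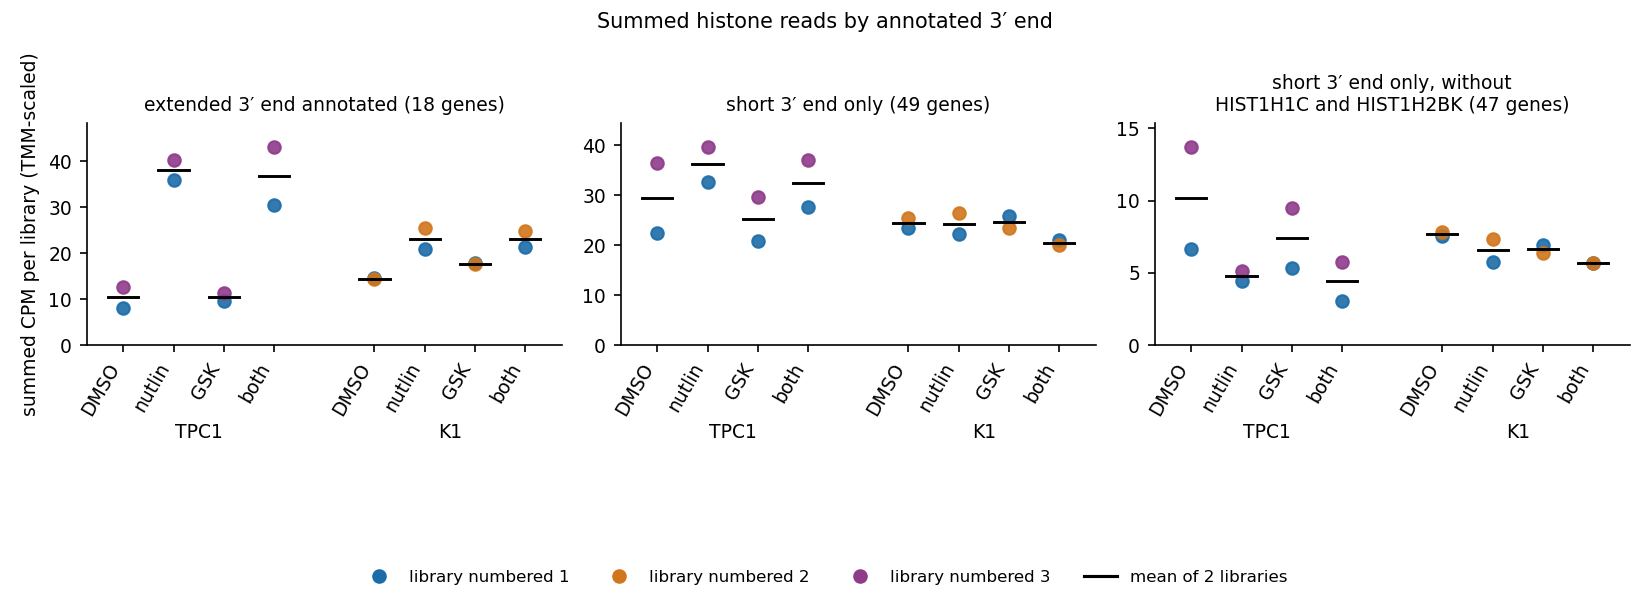
Summed level of the histone genes (CPM, linear axes from 0) in each library, by line, treatment and annotated 3′ end; points are libraries and horizontal lines group means. In TPC1 the extended sum was 8.06 to 12.77 CPM with DMSO and 30.44 to 43.10 CPM in the 4 libraries with nutlin, while the remaining sums changed less.

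Most of the difference in the TPC1 sum lay in the extended genes. Their sum was 8.06 and 12.77 CPM with DMSO, 36.04 and 40.34 CPM with nutlin, 9.55 and 11.28 CPM with GSK2830371, and 30.44 and 43.10 CPM with both drugs. Group means were 10.41 ± 3.33 (SD, n = 2), 38.19 ± 3.04, 10.41 ± 1.22 and 36.77 ± 8.95 CPM, so that nutlin libraries stood 3.67-fold and combination libraries 3.53-fold above DMSO, with no overlap. In K1 the extended sum was 14.58 and 14.45 CPM with DMSO, 20.96 and 25.43 CPM with nutlin, 17.86 and 17.72 CPM with GSK2830371, and 21.42 and 24.90 CPM with both drugs. These are ratios of 1.60, 1.23 and 1.59, again without overlap between treated and DMSO libraries.

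Genes with short ends alone gave ratios of 1.23, 0.858 and 1.10 in TPC1 and 0.995, 1.01 and 0.841 in K1 for nutlin, GSK2830371 and both drugs. HIST1H2BK and HIST1H1C made up most of that sum. Without these 2 genes, a choice made after their values were seen, the TPC1 sum was 6.63 and 13.69 CPM with DMSO, 4.42 and 5.13 CPM with nutlin, 5.31 and 9.46 CPM with GSK2830371, and 3.06 and 5.78 CPM with both drugs. The nutlin and combination libraries were below both DMSO libraries, at 0.470 and 0.435 of the DMSO mean. In K1 the same sum was 0.858 of the DMSO mean with nutlin, 0.868 with GSK2830371 and 0.741 with both drugs, against 7.53 and 7.81 CPM with DMSO.

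The other transcripts in these libraries that normally carry no poly(A) tail give a view of untailed RNA. Summed over 433 rows for small nuclear, small nucleolar and related RNAs, of which 282 had reads, they were 79.9 and 98.3 CPM with DMSO, 49.9 and 72.8 with nutlin, 69.8 and 79.5 with GSK2830371, and 56.1 and 74.8 CPM with both drugs in TPC1. Each TPC1 library numbered 3 had a higher sum than the library numbered 1 of its group. The same held for the short-end genes and for the extended genes. The ratios to DMSO were 0.689, 0.838 and 0.735 in TPC1 and 0.929, 0.955 and 0.872 in K1. The part of untailed RNA in the changes of the histone genes was not tested. In bulk RNA, fewer cells in S phase and less histone RNA per cell cannot be told apart.

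Under nutlin in TPC1, 9 histone genes rose and 9 fell among 38 tested (adjusted p under 0.05 and a change above 1.5-fold). Of all genes tested, 17.5% rose and 18.0% fell. Of the 10 extended genes tested, 7 rose and none fell, with a median log2 fold change of 1.79. Among 25 with short ends, 1 rose and 8 fell, and among the 3 with no annotated end 1 rose and 1 fell. Of the 9 genes that fell, 6 (HIST1H1D, HIST1H2AH, HIST1H2BF, HIST1H2BI, HIST1H2BO and HIST1H3F) reached 10 reads only in TPC1 libraries with DMSO or GSK2830371, and 5 of these 6 have short ends. HIST1H3B, also a short-end gene, reached 10 reads only in TPC1 DMSO library 3, TPC1 GSK2830371 library 3 and K1 DMSO library 1. Those 6 and HIST1H3B entered through the groups in which they are high. The count of short-end falls therefore lends no support to a difference between extended and short-end genes. Each of the 9 genes that rose reached 10 reads in at least 9 of the 16 libraries, so none entered through the libraries with nutlin alone.

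HIST1H3E, an H3 gene, was measured at 0.132 and 0.224 CPM with DMSO and 1.21 and 1.54 CPM with nutlin, a rise of 2.84 ± 0.41 (log2, SE; edgeR adjusted p = 3.1e-04). With GSK2830371 it stood at 0.328 and 0.153 CPM and with both drugs at 1.01 and 0.78 CPM, so that all 4 libraries with nutlin lay above all 4 without it. HIST1H2BG, an H2B gene with no annotated end here, rose by 2.84 ± 0.30 (edgeR adjusted p = 4.4e-05), from 0.343 and 0.56 CPM to 3.27 and 3.65 CPM. Its values of 0.448 and 0.471 CPM with GSK2830371 were close to those with DMSO, and those with both drugs were 1.88 and 3.14 CPM.

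HIST1H2BJ rose by 2.59 ± 0.29 (edgeR adjusted p = 6.1e-05). Its levels were 0.528 and 0.448 CPM with DMSO, 2.76 and 3.12 CPM with nutlin, 0.209 and 0.458 CPM with GSK2830371, and 2.92 and 3.87 CPM with both drugs. HIST2H2BE, the H2B gene of the chromosome 1 cluster with the most reads, rose by 2.08 ± 0.18 (edgeR adjusted p = 1.2e-05). It was measured at 1.66 and 2.24 CPM with DMSO, 8.67 and 8.58 CPM with nutlin, 1.31 and 1.57 CPM with GSK2830371, and 8.79 and 11.6 CPM with both drugs. For both genes the libraries formed 2 separate ranges, high with nutlin and low without.

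HIST1H2AC, an H2A gene, and HIST1H2BD, an H2B gene, were among the most abundant members that rose. HIST1H2AC went from 1.77 and 3.15 CPM with DMSO to 8.33 and 10.8 CPM with nutlin, a rise of 1.89 ± 0.28 (edgeR adjusted p = 3.7e-04), and stood at 2.54 and 2.78 CPM with GSK2830371 and 5.95 and 9.65 CPM with both drugs. HIST1H2BD went from 2.22 and 3.47 CPM to 10.8 and 10.9 CPM, a rise of 1.87 ± 0.22 (edgeR adjusted p = 8.3e-05), and stood at 3.01 and 3.41 CPM with GSK2830371 and 9.49 and 13.9 CPM with both drugs. The remaining extended genes that rose were HIST1H2BC, by 1.65 ± 0.30, and HIST1H4H, an H4 gene, by 1.72 ± 0.60. HIST1H4H rests on few reads, at 0.106 and 0.14 CPM with DMSO and 0.169 and 0.61 CPM with nutlin.

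The single short-end gene that rose was HIST1H1C, by 0.91 ± 0.23 (edgeR adjusted p = 0.0078). Its CPM was 4.28 and 6.89 with DMSO, 10.1 and 11.6 with nutlin, 4.27 and 5.44 with GSK2830371, and 7.33 and 10.5 with both drugs. HIST1H2BK, the leading gene, had an adjusted p of 0.025 (edgeR) but stayed under the 1.5-fold limit with a log2 fold change of 0.55. It was measured at 11.5 and 15.9 CPM with DMSO, 18.2 and 22.9 CPM with nutlin, 11.3 and 14.8 CPM with GSK2830371, and 17.3 and 20.8 CPM with both drugs. For both, the libraries with nutlin lay above those without it. Of the 9 genes called higher, 7, not HIST1H1C or HIST1H4H, were also called in every alternative analysis. That number was 6 of 8 under both drugs in TPC1, and in K1 it was 1 of 3 under nutlin and 1 of 5 under both drugs, in each case HIST1H2BD.

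**Figure D2:**
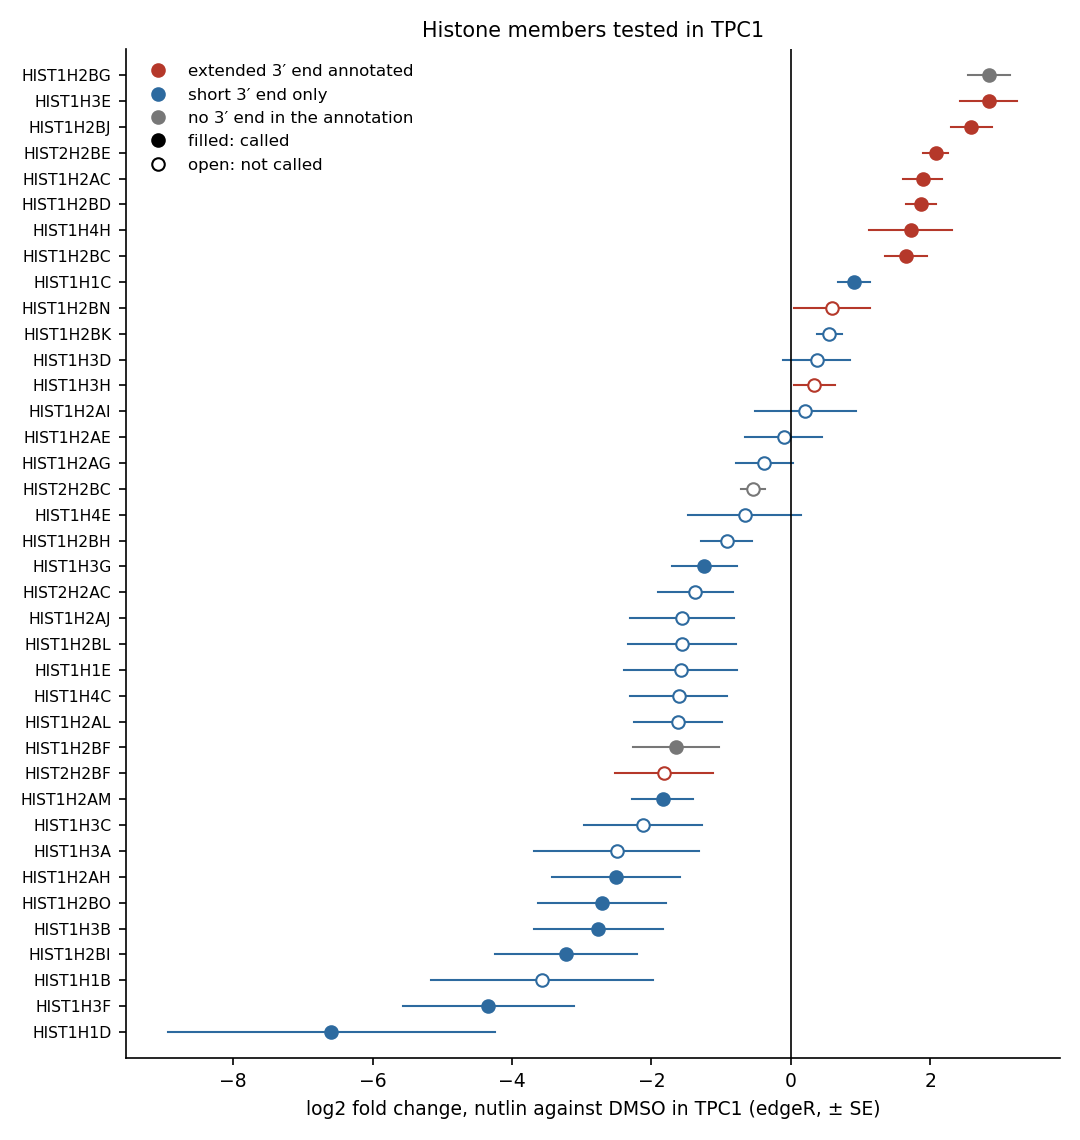
Log2 fold change, nutlin against DMSO, of the 38 histone genes tested in TPC1, ordered by size and colored by annotated 3′ end; bars are SE and filled points pass the test. The 9 genes that rose include 7 extended genes, while 6 of the 9 that fell reached 10 reads only in TPC1 libraries with DMSO or GSK2830371.

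The genes that fell in TPC1 had few reads, so reads per library are given in place of CPM. HIST1H1D, a linker histone gene, had 0 and 28 reads in DMSO libraries 1 and 3, 0 and 0 with nutlin, 4 and 10 with GSK2830371, and 0 and 0 with both drugs. Against a floor of 3 reads over the group at 0, its mean level was at least 6-fold lower with nutlin, but 1 DMSO library was itself at 0. HIST1H3F, an H3 gene, had 4 and 27 reads with DMSO, 1 and 0 with nutlin, 3 and 15 with GSK2830371, and 0 and 3 with both drugs, a fall of -4.34 ± 1.23 (log2, SE; edgeR adjusted p = 0.014). Both genes were lowest in the libraries with nutlin, and the deeper libraries numbered 3 held most of their reads.

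HIST1H2BI, an H2B gene, had 4 and 33 reads with DMSO, 0 and 3 with nutlin, 1 and 13 with GSK2830371, and 3 and 5 with both drugs (log2 fold change -3.22 ± 1.02 for nutlin; edgeR adjusted p = 0.024). HIST1H3B, an H3 gene, had 6 and 28 reads with DMSO, 0 and 4 with nutlin, 5 and 18 with GSK2830371, and 0 and 5 with both drugs (-2.76 ± 0.93; edgeR adjusted p = 0.031). In both genes, as in HIST1H3F, the nutlin libraries had fewer reads than the GSK2830371 libraries of the same number, and these fewer than the DMSO libraries. The other genes that fell were HIST1H2BO (-2.71), HIST1H2AH (-2.51), HIST1H2AM (-1.84), HIST1H2BF (-1.65) and HIST1H3G (-1.24). HIST1H2AM overlaps HIST1H3J in the annotation. HIST1H2BM, which had too few reads to be among the 40, had a log2 fold change of -5.79.

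The calls of these falls depended on which libraries were kept. Leaving out DMSO library 3 or either nutlin library lowered the number called. All 9 genes had a higher CPM in DMSO library 3 than in DMSO library 1, and 7 had under 10 reads in library 1. With DMSO library 3 left out, 1 of the 9 (HIST1H2AM) was still called, and with DMSO library 1 left out, 8 were. With the replicate number as a block, 18 genes fell instead of 9.

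Of the 40 reported genes, 14 reached 10 reads in fewer than 2 libraries other than the deep TPC1 libraries numbered 3, and 11 reached 10 reads only in TPC1 libraries with DMSO or GSK2830371. Counts and medians over the genes tested therefore describe the genes these libraries could measure and not all 73.

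**Figure D3:**
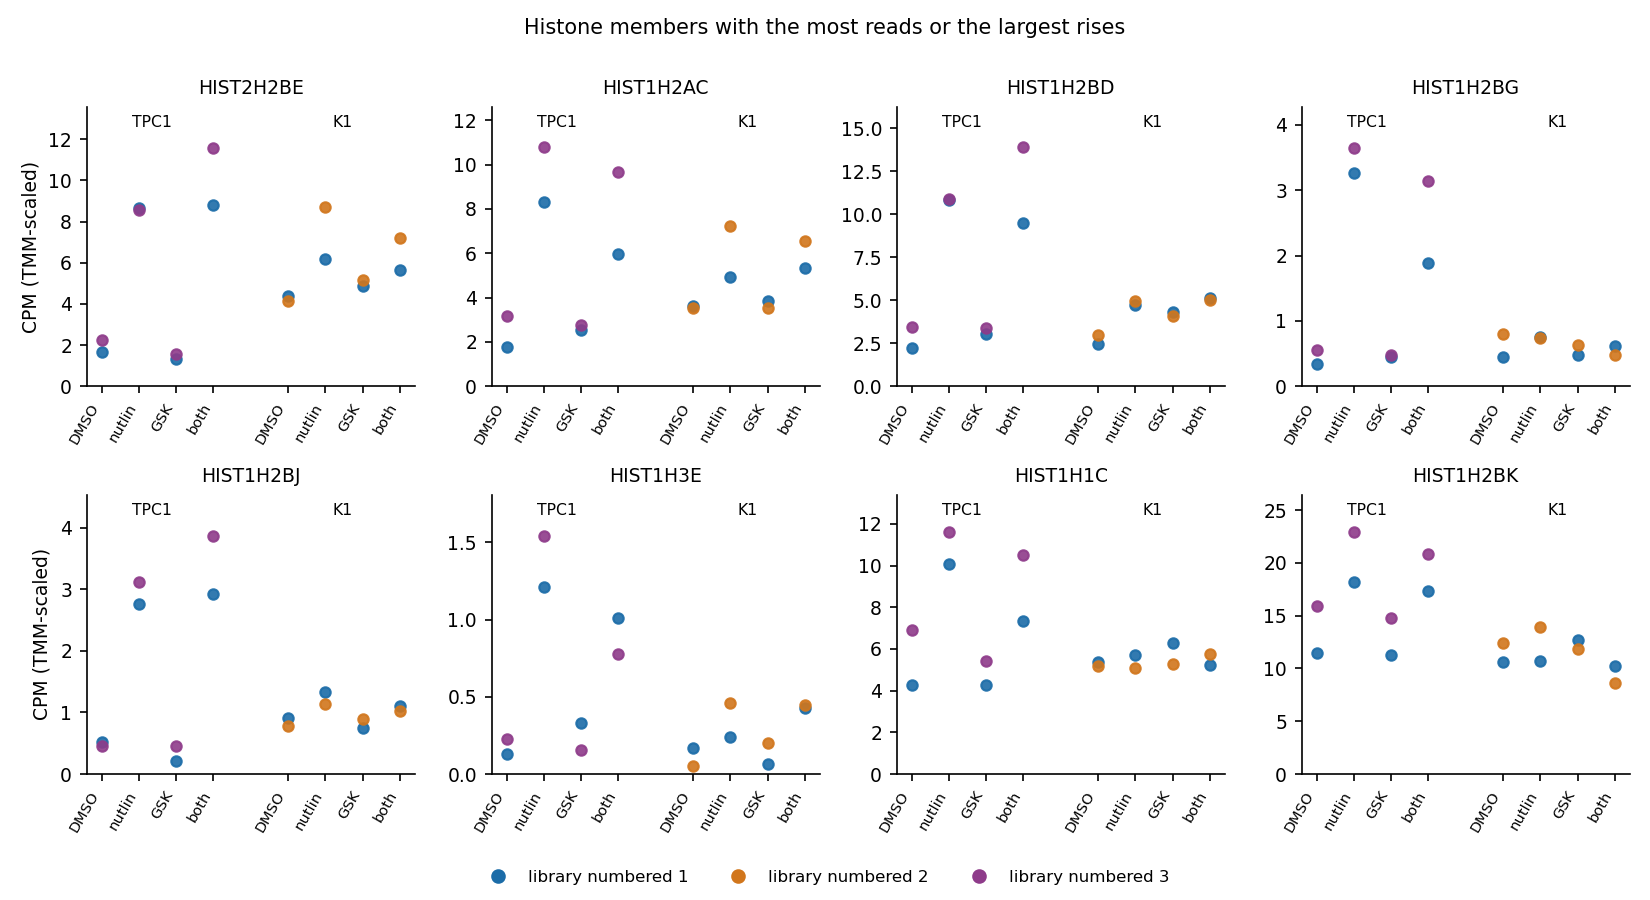
CPM of the leading histone genes in each of the 16 libraries, by line and treatment; points are libraries. In TPC1 the libraries with nutlin stand apart from those without for HIST2H2BE, HIST1H2BD, HIST1H2AC, HIST1H2BJ and HIST1H2BG, and in K1 the gap is smaller.

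With nutlin and GSK2830371 together in TPC1, 8 histone genes rose and 14 fell, where 22.5% of all genes rose and 21.7% fell. Of the 10 extended genes, 6 rose, with a median of 1.67, and 1 of 25 short-end genes rose and 12 fell. Of the 14 that fell, 7 reached 10 reads only in TPC1 libraries with DMSO or GSK2830371, and HIST1H3B only in libraries without nutlin. The comparison shares its DMSO libraries with that of nutlin alone. HIST1H2BJ rose by 2.80 ± 0.29 (edgeR adjusted p = 2.4e-05), HIST1H2BG by 2.40 ± 0.31, HIST2H2BE by 2.34 ± 0.18 (edgeR adjusted p = 3.7e-06) and HIST1H3E by 2.19 ± 0.43 (edgeR adjusted p = 0.0015). HIST1H2BD rose by 1.99 ± 0.22, HIST1H4H by 1.73 ± 0.60, HIST1H2AC by 1.61 ± 0.28 and HIST1H1C by 0.64 ± 0.23 (edgeR adjusted p = 0.034).

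The largest falls under both drugs were those of HIST1H1D and HIST1H2AH, which had no read in either library. HIST1H2AH, an H2A gene, had 3 and 12 reads with DMSO, 1 and 1 with nutlin and 2 and 10 with GSK2830371, so that it was at least 3.9-fold lower with both drugs than with DMSO. HIST1H3C, an H3 gene, had 13 and 43 reads with DMSO, 6 and 4 with nutlin, 2 and 31 with GSK2830371, and 0 and 5 with both drugs (-3.21 ± 0.96). HIST1H2AL, an H2A gene, had 9 and 24 reads with DMSO, 2 and 7 with nutlin, 6 and 26 with GSK2830371, and 0 and 3 with both drugs (-3.17 ± 0.77). In these 3 genes the combination libraries lay below both DMSO libraries.

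HIST2H2BC, annotated as a pseudogene, was the most abundant member that fell, by -0.79 ± 0.17 (log2, SE; edgeR adjusted p = 0.0028). It was at 3.49 and 3.26 CPM with DMSO, 2.43 and 2.31 CPM with nutlin, 3.07 and 2.55 CPM with GSK2830371, and 1.97 and 2.0 CPM with both drugs. Its nutlin value of -0.54 (edgeR adjusted p = 0.021) stayed under the fold limit. Without DMSO library 3, 4 of the 14 (HIST1H2AL, HIST1H2AM, HIST1H3G and HIST2H2BC) were still called, and without DMSO library 1 all 14 were.

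**Figure D4:**
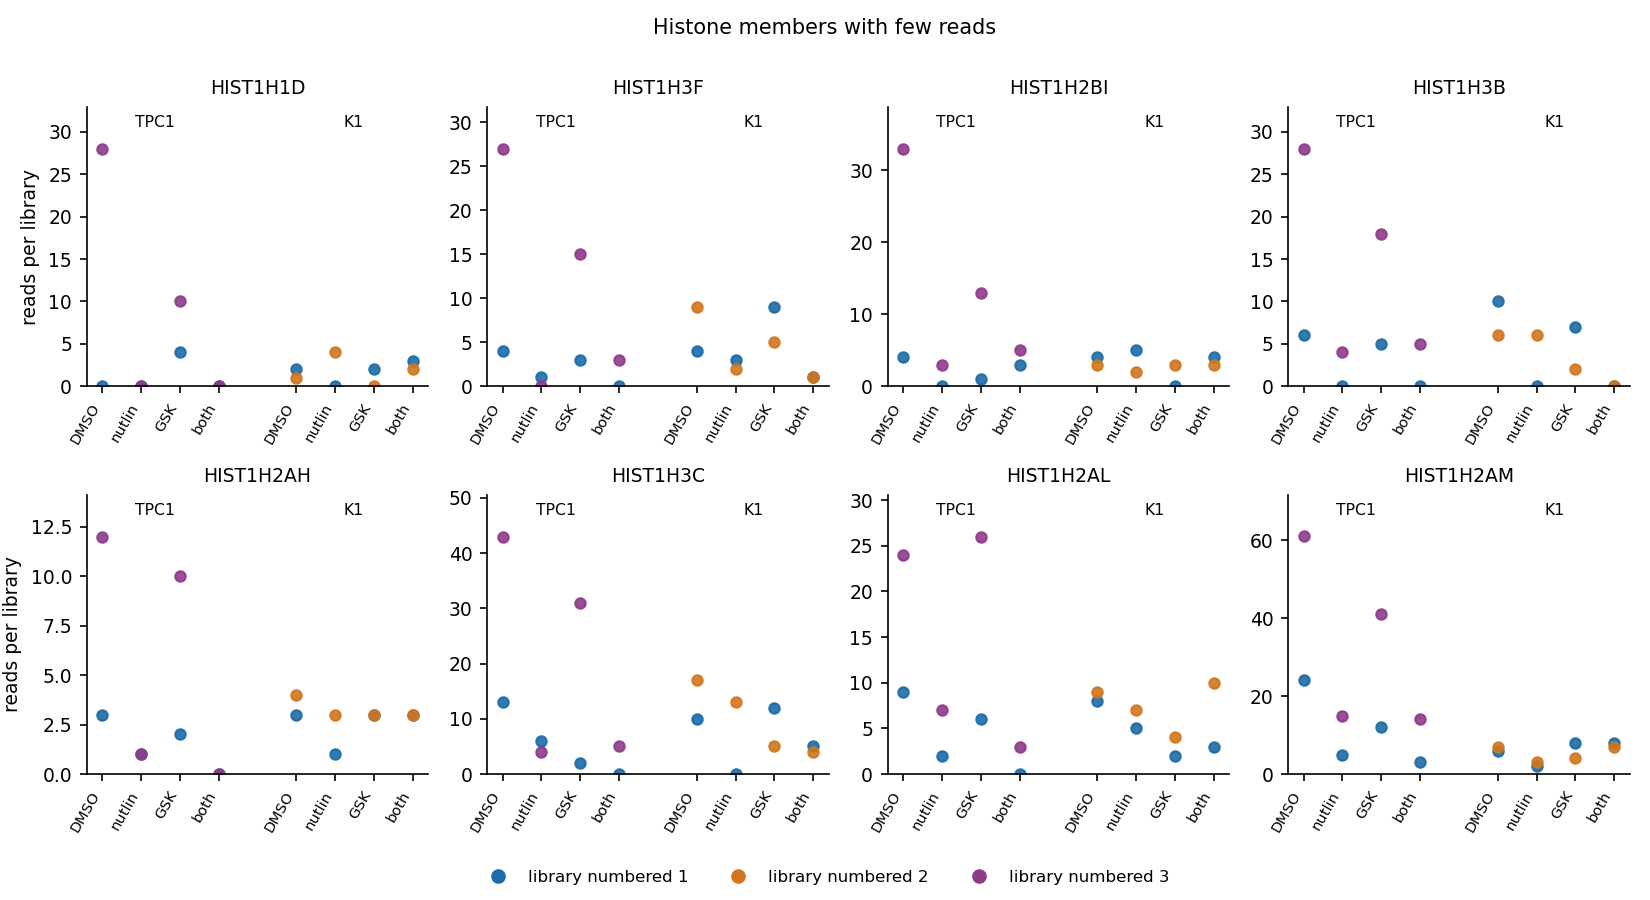
Reads per library of the low-count histone genes with the largest falls, by line and treatment; points are libraries. In TPC1 most reads came from library 3 of the DMSO and GSK2830371 groups, as for HIST1H1D with 0 and 28 reads with DMSO and none with nutlin.

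Adding GSK2830371 to nutlin in TPC1 changed 1 histone gene. HIST1H2BC was lower with both drugs than with nutlin by -1.29 ± 0.30 (log2, SE; edgeR adjusted p = 0.012), and none was higher, where 6.46% of all genes were higher and 5.66% lower. Its CPM was 0.687 and 1.02 with DMSO, 2.53 and 3.08 with nutlin, 0.776 and 1.03 with GSK2830371, and 0.786 and 1.44 with both drugs. The combination libraries were thus below both nutlin libraries and near those with DMSO. Without nutlin library 3, HIST1H2BC was no longer called. The longest annotated transcript of HIST1H2BC overlaps HIST1H1T.

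GSK2830371 alone in TPC1 changed no histone gene in edgeR's test, none at an unadjusted p under 0.05 (20.7% of all genes), and none in DESeq2, which gave no adjusted p for 22 of the 38. Of all genes, 0.720% rose and 0.681% fell.

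In K1 fewer histone genes changed. Under nutlin 3 of 37 tested rose and none fell, where 3.84% of all genes rose and 5.43% fell, and an unadjusted p under 0.05 was reached by 6 of them (16.2%) and by 39.9% of all genes. HIST1H2BD rose by 0.84 ± 0.14 (log2, SE; edgeR adjusted p = 5.7e-04), HIST2H2BE by 0.81 ± 0.17 (edgeR adjusted p = 0.0023) and HIST1H2AC by 0.77 ± 0.18 (edgeR adjusted p = 0.0045). All 3 are extended and all 3 also rose in TPC1, which is 100% of the K1 genes and 33.3% of the TPC1 genes called higher. In TPC1 17.5% of all genes rose under nutlin. The overlap of the lines over all genes was not counted, so it is not known whether this overlap is particular to histone genes.

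HIST1H2BD in K1 was at 2.43 and 2.99 CPM with DMSO, 4.73 and 4.95 CPM with nutlin, 4.32 and 4.08 CPM with GSK2830371, and 5.12 and 5.02 CPM with both drugs. HIST2H2BE was at 4.4 and 4.13 CPM, 6.16 and 8.69 CPM, 4.88 and 5.14 CPM, and 5.67 and 7.2 CPM in the same order. HIST1H2AC was at 3.64 and 3.52 CPM, 4.93 and 7.25 CPM, 3.84 and 3.52 CPM, and 5.33 and 6.57 CPM. In each of these genes both nutlin groups lay above the DMSO libraries, and HIST1H2BD was the one that GSK2830371 alone also raised, by 0.63 ± 0.15 (log2, SE; edgeR adjusted p = 0.0088). It was the single histone gene changed by GSK2830371 in K1, where 0.736% of all genes rose and 1.5% fell. Without DMSO library 1 or without GSK2830371 library 1 it was not called. With nutlin library 2 left out, 1 histone gene rose and 2 fell under nutlin.

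Other abundant genes of K1 did not pass the test under nutlin. HIST1H2BK was measured at 10.6 and 12.4 CPM with DMSO, 10.7 and 13.9 CPM with nutlin, 12.7 and 11.8 CPM with GSK2830371, and 10.2 and 8.58 CPM with both drugs. HIST1H1C was measured at 5.36 and 5.2 CPM, 5.72 and 5.07 CPM, 6.27 and 5.3 CPM, and 5.21 and 5.74 CPM. HIST2H2BC was at 1.47 and 2.11 CPM with DMSO and 1.68 and 1.47 CPM with nutlin. In all 3 genes the nutlin range overlapped that of DMSO, and none passed the test. HIST3H2A, an H2A gene of the HIST3 cluster, was at 1.55 and 1.09 CPM with DMSO, 1.27 and 1.47 CPM with nutlin, 1.86 and 1.91 CPM with GSK2830371, and 1.78 and 1.79 CPM with both drugs. HIST1H2BH was at 1.55 and 1.87 CPM, 1.54 and 2.21 CPM, 1.07 and 1.09 CPM, and 1.41 and 1.08 CPM. Neither of these passed the test under nutlin.

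With both drugs in K1, 5 histone genes rose and 4 fell, where 7.62% of all genes rose and 8.09% fell. HIST1H3E rose by 1.96 ± 0.61, HIST1H4H by 1.51 ± 0.57, HIST1H2BD by 0.90 ± 0.14, HIST1H2AC by 0.73 ± 0.18 and HIST2H2BE by 0.59 ± 0.17. All 5 are extended and rose in TPC1 too, making up 62.5% of the 8 genes called higher there, where 22.5% of all genes rose. The overlap over all genes was not counted here either. HIST1H3E was at 0.169 and 0.0533 CPM with DMSO and 0.429 and 0.448 CPM with both drugs, and HIST1H4H at 0.169 and 0.187 CPM and at 0.368 and 0.657 CPM. For these 2 low genes the combination libraries lay above the DMSO libraries.

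HIST1H3B had 10 and 6 reads with DMSO in K1, 0 and 6 with nutlin, 7 and 2 with GSK2830371, and 0 and 0 with both drugs, which was at least 4.87-fold lower than DMSO. HIST1H4E, an H4 gene, had 10 and 4 reads with DMSO, 5 and 3 with nutlin, 5 and 6 with GSK2830371, and 1 and 0 with both drugs (log2 fold change -3.37 ± 1.08). HIST1H3F had 4 and 9 reads with DMSO and 1 and 1 with both drugs (-2.42 ± 0.89). HIST1H3G, an H3 gene, had 22 and 10 reads with DMSO, 8 and 9 with nutlin, 9 and 6 with GSK2830371, and 1 and 6 with both drugs (-2.02 ± 0.66). All but HIST1H4E, 3 of the 4, also fell in TPC1 under both drugs, which is 75% of the K1 genes and 21.4% of the TPC1 genes called lower. In TPC1 21.7% of all genes fell under both drugs, and the overlap over all genes was not counted. Of the 3 shared genes, HIST1H3F reached 10 reads only in TPC1 libraries with DMSO or GSK2830371, and HIST1H3B only in libraries without nutlin. Both entered through groups in which they are high, so their shared falls lend no support to a likeness of the lines. With any one of DMSO library 1 or the combination libraries left out, 1 gene was called lower, and DESeq2 called 0 lower. The number that rose was 2 without DMSO library 2 and 1 without combination library 2.

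Set against nutlin alone, the combination changed no histone gene in K1 by edgeR's test, where 1.16% of all genes were higher and 1.52% lower. An unadjusted p under 0.05 was reached by 6 histone genes (16.2%) and by 26.3% of all genes, and DESeq2, which gave no adjusted p for 29 of the 37, also called 0.

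The difference between the lines in the nutlin response was tested as an interaction over all 16 libraries. Of the 40 histone genes, 7 rose less in K1 than in TPC1 and none rose more, where 10.5% of all genes had a lower and 8.73% a higher response in K1. The difference, K1 minus TPC1, was -2.62 for HIST1H2BG (edgeR adjusted p = 5.9e-04), -2.06 for HIST1H2BJ (edgeR adjusted p = 7.2e-04), -1.30 for HIST2H2BE (edgeR adjusted p = 0.0015) and -1.05 for HIST1H2BD (edgeR adjusted p = 0.01). It was -1.40 for HIST1H2BC, -1.14 for HIST1H2AC and -0.91 for HIST1H1C. An unadjusted p under 0.05 was reached by 11 histone genes (27.5%) and by 39.9% of all genes. HIST1H2BG in K1 was at 0.451 and 0.8 CPM with DMSO and 0.753 and 0.737 CPM with nutlin, and HIST1H2BJ at 0.903 and 0.773 CPM and at 1.34 and 1.14 CPM. HIST1H2BG thus overlapped between the groups in K1, while in TPC1 its nutlin libraries were far above those with DMSO. Under the replicate block, 5 histone genes had a higher response in K1 in place of 0, and 7 a lower one.

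**Figure D5:**
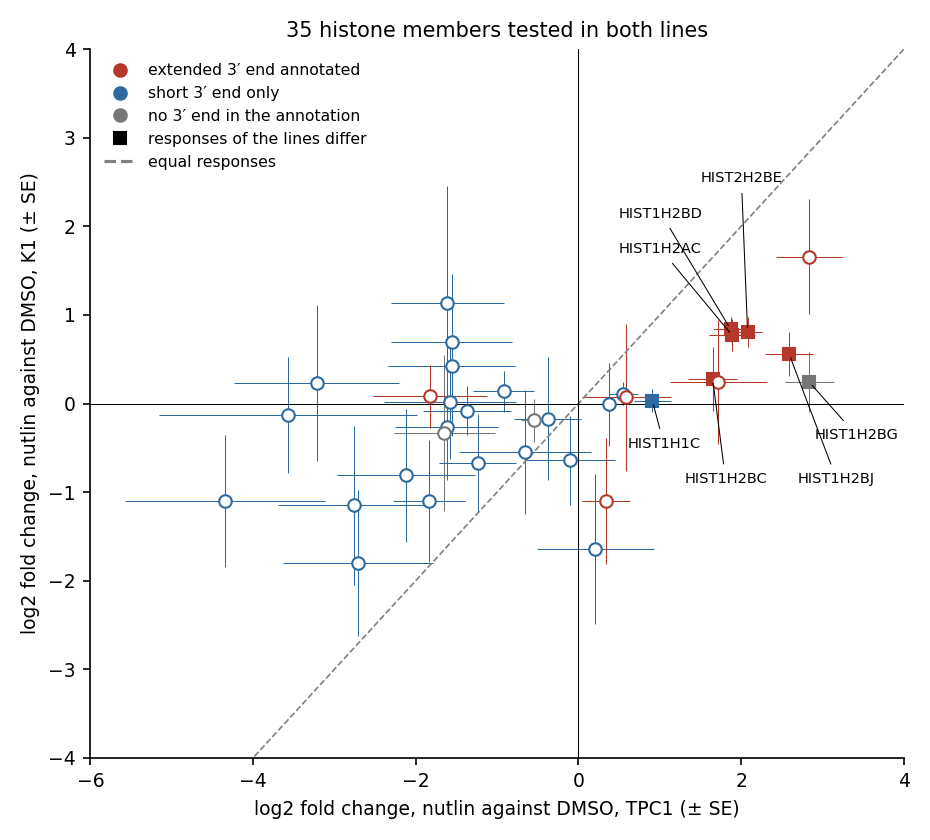
Log2 fold change, nutlin against DMSO, of each histone gene tested in both lines, TPC1 on the x axis and K1 on the y axis, with SE bars and a dashed line of equality. HIST1H2BG and HIST1H2BJ lie farthest below the line of equality among the genes whose response differed, with differences of -2.62 and -2.06.

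The lines were also compared with vehicle alone, where line, medium and library preparation cannot be told apart. Of 40 histone genes tested, 3 were higher in K1 and 8 lower, and of all genes 25.0% were higher and 21.2% lower. By edgeR's test 12 histone genes (30%) had an unadjusted p under 0.05, as did 70.2% of all genes. Higher in K1 were HIST3H2A, HIST2H2BE by 1.09 ± 0.21 (log2, SE; edgeR adjusted p = 1.8e-04) and HIST1H2BJ by 0.80 ± 0.31 (edgeR adjusted p = 0.03). HIST3H2A had no read in any TPC1 library and 416 in K1, and its level with DMSO was at least 48.2-fold higher in K1. HIST3H2BB, HIST1H3I and HIST1H4L also had no read in TPC1, with 27, 14 and 9 reads in K1. Lower in K1 were 8 genes, from HIST1H2AG (-2.52) and HIST1H4C (-2.51) to HIST2H2BC (-0.91) and HIST1H2BC (-0.88). Between these stood HIST1H2AM (-2.07), HIST1H3H (-1.99), HIST1H1E (-1.88) and HIST1H2BF (-1.83). HIST1H2AM, HIST1H2BF, HIST1H3H and HIST1H4C reached the read minimum for a reported gene only in TPC1 libraries, and HIST3H2A only in K1 libraries. Each entered through the line in which it is high. Their calls therefore lend no support to a difference between the lines over the histone genes as a set. The number lower was 5 without K1 DMSO library 1, and 4 without K1 DMSO library 2 or TPC1 DMSO library 3.

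Many H2A and H2B genes lie head to head and are transcribed away from a shared promoter. In 11 pairs of histone genes the start sites lay on opposite strands within 1000 bases, and in 7 of these both genes were reported, at distances of 236 to 979 bases. Of these, 3 intervals between the start sites are shown on the plus strand of GRCh37, for a pair that rose together, a pair that did not move together and a pair that fell together. Capitals mark CCAAT, the TATA sequence TATAAA and the octamer ATTTGCAT, on either strand.
HIST1H2BC and HIST1H2AC (chr6:26124155-26124399): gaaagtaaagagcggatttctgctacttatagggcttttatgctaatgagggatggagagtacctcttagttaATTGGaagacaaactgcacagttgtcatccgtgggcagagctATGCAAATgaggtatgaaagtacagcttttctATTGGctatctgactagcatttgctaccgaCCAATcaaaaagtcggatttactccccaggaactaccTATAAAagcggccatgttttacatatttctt
HIST2H2BE and HIST2H2AC (chr1:149858233-149858467): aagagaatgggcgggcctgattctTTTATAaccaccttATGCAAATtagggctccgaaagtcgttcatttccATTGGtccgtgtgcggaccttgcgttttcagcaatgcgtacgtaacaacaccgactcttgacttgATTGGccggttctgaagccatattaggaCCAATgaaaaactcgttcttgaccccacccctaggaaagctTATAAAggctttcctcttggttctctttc
HIST1H2AM and HIST1H2BO (chr6:27860964-27861202): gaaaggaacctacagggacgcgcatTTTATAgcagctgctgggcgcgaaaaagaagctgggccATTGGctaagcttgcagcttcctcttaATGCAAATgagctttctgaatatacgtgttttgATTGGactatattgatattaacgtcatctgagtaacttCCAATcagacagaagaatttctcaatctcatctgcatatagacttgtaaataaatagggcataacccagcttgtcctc

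All 3 intervals held 3 CCAAT sequences and 1 octamer, with 2 TATAAA between HIST2H2BE and HIST2H2AC and 1 in each of the others. Promoters ran from 250 bases before to 50 after the start site of the canonical GENCODE transcript. CCAAT was found in 35 of 37 histone genes with a promoter, TATAAA in 23 and the octamer in 16. The shares over 19881 promoters of the same length were 36.0%, 9.62% and 1.58%. The octamer was found in 8 of 10 H2A and 8 of 11 H2B genes, and of the 16, 4 rose and 4 fell under nutlin in TPC1, near the 17.5% and 18.0% of all genes. A match of letters is a description and not a site in use.

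Under nutlin in TPC1, HIST1H2BC and HIST1H2AC rose together (1.65 and 1.89), and HIST1H2AM and HIST1H2BO fell together (-1.84 and -2.71). In 2 pairs 1 gene rose and its partner did not pass the test, in 2 pairs 1 gene fell and its partner did not pass, and in 1 neither passed. HIST1H2BJ rose by 2.59 while HIST1H2AG stood at -0.38, and HIST2H2BE rose by 2.08 while HIST2H2AC stood at -1.37 (edgeR adjusted p = 0.056). HIST2H2AC had 0.37 and 1.06 CPM with DMSO and 0.236 and 0.337 CPM with nutlin, both nutlin libraries below those with DMSO. HIST1H2AH fell by -2.51 beside HIST1H2BK at 0.55, and HIST1H3F by -4.34 beside HIST1H2BH at -0.92. HIST1H2BL (-1.56) and HIST1H2AI (0.21) did not pass. In the pairs of HIST1H2BJ and HIST2H2BE, the gene that rose is extended and its partner has a short end. In no pair did the test call 1 gene higher and its partner lower.

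The machinery that makes replication-dependent histone mRNA was measured in the same libraries. Beside the counts that follow, 17.5% of all genes rose and 18.0% fell under nutlin in TPC1, and 3.84% rose and 5.43% fell in K1. SLBP, the stem-loop binding protein, was at 98.1 and 125 CPM with DMSO and 34.1 and 41.2 CPM with nutlin in TPC1, and at 60.3 and 65.3 CPM and 29.5 and 31.4 CPM in K1. It fell by -1.60 ± 0.14 in TPC1 and -1.04 ± 0.07 in K1, without overlap. NPAT, the coactivator of histone transcription that cyclin E-CDK2 phosphorylates, fell by -1.25 and -0.91, and CASP8AP2, a component of histone locus bodies, by -1.66 and -1.01. ZNF473, a U7 snRNP-associated processing factor, fell by -0.64 and -0.66. With both drugs it stood at 0.15 in TPC1, which was 0.80 above nutlin alone (edgeR adjusted p = 3.1e-04), and fell by -0.81 in K1. ERI1, the exonuclease that trims histone mRNA ends, fell by -1.12 and -0.79. LSM11 fell by -1.41 in TPC1 and stood at -0.46 in K1, under the 1.5-fold limit (edgeR adjusted p = 0.011). Of 21 histone mRNA processing genes, 0 rose and 9 fell in TPC1 (median -0.42), and 0 rose and 5 fell in K1 (median -0.26). Of 14 core polyadenylation genes, 2 rose and 3 fell in TPC1 (median -0.34), and 0 rose and 1 fell in K1 (median -0.14), near the shares of all genes.

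Of 30 S phase genes, 29 fell under nutlin in TPC1 and 28 in K1, with medians of -3.08 and -1.92 and none higher. CCNE2, a cyclin of the G1 to S transition, fell by -6.77 in TPC1 and -4.19 in K1, and E2F1, a transcription factor of S phase genes, by -4.18 and -2.53. PCNA, the replication clamp and a p53 target, stood at 0.56 and -0.12 and passed the test in neither line. In TPC1 its edgeR adjusted p was 0.0028, and its 1.47-fold change was just under the 1.5-fold limit. With both drugs PCNA rose by 0.92 in TPC1 (edgeR adjusted p = 1.0e-04) and stood at 0.29 in K1, under the fold limit. The response of 24 of the 30 was higher, that is a smaller fall, in K1, and that of 1, PCNA, was lower (-0.71, edgeR adjusted p = 0.0014). Of all genes, 8.73% had a higher and 10.5% a lower response in K1. Chaperones that carry new histones to DNA fell too, 16 of 22 in TPC1 (median -1.25) and 11 in K1 (median -0.56), among them ASF1B (-3.69 and -1.98) and CHAF1B (-2.76 and -2.07).

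Replacement histones, most of whose mRNAs are polyadenylated and made outside S phase as well, did not rise under nutlin alone. Under nutlin 6 of 11 fell in TPC1 (median -0.84) and 4 of 12 in K1 (median -0.47), none rising. H2AFX fell by -3.15 and -1.07, H2AFZ by -2.14 and -0.79, and the linker histone H1F0 by -2.21 and -1.12. H2AFJ (0.47 and -0.17) and H3F3B (-0.28 and -0.26) did not pass the test. H3F3A did not pass under nutlin either (-0.43 ± 0.39 and -0.66 ± 0.62). Near-identical copies of it lie elsewhere in the genome, and their effect on its few reads was not tested. With both drugs in TPC1, 1 of 11 replacement histones rose (H2AFJ, by 0.59) and 8 fell, H3F3A among them (-1.86, edgeR adjusted p = 0.0063). Of all genes 22.5% rose and 21.7% fell. In K1 0 of 12 rose and 6 fell, where 7.62% rose and 8.09% fell. In TPC1 H1F0 was -0.93 from DMSO with both drugs and 1.28 above nutlin alone. The clustered genes that rose under nutlin in TPC1 were 7 extended genes, HIST1H1C and HIST1H2BG, beside lower values for S phase genes, SLBP and 6 replacement histones.

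Similar copies also bear on the clustered genes. HIST2H2AA3, HIST2H2AA4, HIST2H3A, HIST2H3C, HIST2H4A and HIST2H4B had no read in any library and share between 49.7% and 100% of their 100-base windows with another gene of the family. The other 5 genes without reads (HIST1H2AA, HIST1H2APS1, HIST1H2BA, HIST1H4G and HIST3H3) share 0.0%. How much sequence the genes with reads share was not measured.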

How the data were processed

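Read counts per gene were deposited in 1 table of 25369 genes by 16 libraries, unit raw counts. The authors trimmed single-end reads of poly(A)-selected RNA from a stranded kit, aligned them to GRCh37/hg19 with TopHat2 2.0.13, removed alignments of low mapping quality and counted exons with HTSeq 0.6.1 by strand, using the UCSC hg19 annotation. Such a filter removes reads that fit several histone genes, so near-identical genes are undercounted. FastQC 0.11.5, Bowtie2 2.2.3.0, SAMtools 1.3.1 and Picard 1.129 are listed in the submitters' processing notes.

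From these counts, edgeR 4.0.16 (R 4.3.3) was run with TMM scaling and the quasi-likelihood test on genes above 0.1 CPM in at least 2 libraries, on the 8 libraries of a line together, with 4 residual degrees of freedom. Interaction and line contrasts used all 16 libraries. P-values were adjusted by Benjamini-Hochberg over all genes tested, and a gene was called at adjusted p under 0.05 and a change above 1.5-fold, the limits of the study's methods. Printed CPM are TMM-scaled over 16 libraries. Changes are log2 fold changes with SE. A group at 0 was set to a floor of 3 counts over the group. The script was tested on simulated data with known changes.

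Genes named are all members with at least 10 counts in 2 libraries, with values per library for the 8 most abundant of each line and the 4 largest called changes in each direction under nutlin and under both drugs. The members, lists and rules were chosen with earlier results of these data known. The sum without HIST1H1C and HIST1H2BK was chosen after values were seen. Stem-loops, 3′ ends, intervals and promoters were read from GRCh37 with GENCODE v44 (lift37) by pysam 0.24.0. All 73 symbols matched a current RefSeq symbol and 70 were in GENCODE.

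TPC1 columns are numbered 1 and 3 where the labels give replicates 1 and 2, so the columns numbered 3 were assigned by group. Libraries of the same number in TPC1 deviated together (r = 0.494 to 0.698 over 12318 genes), and in K1 they did not (-0.359 to 0.379). The pairing is therefore a feature of the TPC1 data, and a fit with the replicate number as a block was an alternative. Other alternatives were DESeq2 1.42.0, other scalings and filters, and leaving out each library. A fit with the trend in GC content and transcript length removed was added after seeing the data.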

Additional observations from a re-analysis of the deposited data

Results flagged for a closer look

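For 7 of 40 histone genes, the nutlin response differed between the lines by the interaction test over 16 libraries (edgeR, adjusted over all genes). In each the response was lower in K1. Of all genes, 10.5% had a lower and 8.73% a higher response in K1. By the same test 27.5% of the histone genes and 39.9% of all genes had an unadjusted p under 0.05. The difference, K1 minus TPC1 on the log2 scale, was -2.62 for HIST1H2BG (edgeR adjusted p = 5.9e-04), -2.06 for HIST1H2BJ (edgeR adjusted p = 7.2e-04), -1.40 for HIST1H2BC (edgeR adjusted p = 0.046), -1.30 for HIST2H2BE (edgeR adjusted p = 0.0015), -1.14 for HIST1H2AC (edgeR adjusted p = 0.025), -1.05 for HIST1H2BD (edgeR adjusted p = 0.01) and -0.91 for HIST1H1C (edgeR adjusted p = 0.027). CDKN1A also had a smaller rise in K1, 3.16 against 5.61. Line, medium and library preparation cannot be told apart.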

How the results depend on the processing

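With the replicate number as a block, which pairs the TPC1 libraries, 18 genes in place of 9 fell under nutlin in TPC1, 1 in place of 0 was higher with both drugs than with nutlin there, and 5 in place of 0 had a higher nutlin response in K1. The block moved no other count of calls by over 1.5 times, and of 72 calls of single genes 70 were kept, 2 lost and 0 reversed. With the trend in GC content and transcript length removed, chosen after seeing the data, 15 fell under nutlin in TPC1, and with the block as well 19 fell, 1 was higher with both drugs than with nutlin, and 4 had a higher response in K1. DESeq2 called fewer lower genes: 3 under nutlin and 9 in place of 14 under both drugs in TPC1, 0 in place of 4 under both drugs in K1 and 4 in place of 8 in K1 against TPC1 with DMSO. It also called 3 in place of 5 higher under both drugs in K1, where 3 of the 9 genes called by edgeR had no adjusted p. The filter of filterByExpr gave 0 lower under both drugs in K1. Without a filter on low counts, 1 gene fell under GSK2830371 in K1 and 3 had a higher nutlin response in K1. Leaving out each library in turn gave 7 to 10 higher and 2 to 13 lower genes under nutlin in TPC1, 6 to 8 higher and 4 to 20 lower under both drugs there, and 0 to 1 lower for both drugs against nutlin. In K1 it gave 1 to 3 higher and 0 to 2 lower under nutlin, 0 to 1 higher under GSK2830371, and 1 to 5 higher and 1 to 4 lower under both drugs. It gave 0 to 4 higher and 3 to 8 lower nutlin responses in K1, and 2 to 4 higher and 4 to 12 lower genes in K1 with DMSO. The lowest of these for lower nutlin responses, 3, was without K1 DMSO library 2, and 4 were left without K1 DMSO library 1, TPC1 DMSO library 1 or TPC1 nutlin library 3. The 4 higher responses appeared without TPC1 DMSO library 1. Under nutlin in TPC1, 2 genes fell without DMSO library 3 and 3 without nutlin library 1 or nutlin library 3, and under both drugs 5 fell without combination library 1. HIST1H1D went from -6.59 under nutlin and under both drugs to 0.00 without TPC1 DMSO library 3 and -7.38 without TPC1 DMSO library 1, since library 3 holds all its DMSO reads. Raising the limit for a reported gene to 50 counts in 2 libraries left 14 genes, and asking for 10 counts in every library left 9. The causes of the other changes were not tested. Depth limits the genes with few reads, as 14 of the 40 reported genes reached 10 reads in fewer than 2 libraries outside the TPC1 libraries numbered 3.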
